A study of Mus musculus with 3 samples.

Results

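Vascular endothelial cells line the large vessels of the liver, the portal vein and hepatic artery branches and the central and larger hepatic veins, and are set here against the sinusoidal endothelial cells that line the capillaries between them. Single liver cells were taken from 3 wild-type mice, 1 mouse per group, by 10x Genomics Chromium droplet sequencing. Before treatment every animal was kept for 1 week on chow low in iron, at 2 to 6 ppm. The mouse of IDD+HTF then received 10 mg of holo-transferrin, transferrin with its iron bound, through a tail vein, the mouse of IDD+HID was moved for 18 h to a diet with 2% carbonyl iron, and the mouse of IDD stayed on the iron-deficient diet as control. The time between injection and collection is not given in the sources used here. The series asks how liver endothelium responds to the form in which iron arrives. The cells were chosen by their own counts of unique molecular identifiers (UMIs). A cell was a barcode with at least 1000 UMIs, 300 genes and at most 20% mitochondrial UMIs, and a member had at least 3 UMIs of Vwf, Cd34 and Adgrg6 together, at least 5 of them per 10000 UMIs, at least 1 UMI of Pecam1 or Cdh5 and under 20 per 10000 of the Kupffer cell genes Clec4f, Vsig4 and Cd5l. This rule took 126 of 8087 cells, of which 53 of 3208 were in IDD+HTF, 57 of 3545 in IDD+HID and 16 of 1334 in IDD.

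Von Willebrand factor (Vwf) is the adhesive protein that endothelial cells of larger vessels store and release at sites of injury, Cd34 is a surface sialomucin of vascular endothelium and of several mesenchymal and progenitor cells, and Adgrg6 is an adhesion G protein-coupled receptor. Central vein endothelium is a source of Wnt ligands and of R-spondin 3 (Rspo3), which maintain the pericentral hepatocytes, whereas arterial and portal endothelium carries Notch and ephrin genes such as Efnb2 and the connexin Gja5. Liver sinusoidal endothelium is known as the main source of Bmp2 and Bmp6, the ligands that drive hepcidin synthesis in hepatocytes, so that the same iron signals can be followed in the endothelium of the larger vessels. With 1 mouse per group no difference between groups has a replicate check, no test was made and the text holds no p-value. Intervals in parentheses are 95% intervals for counting error only. They are exact, except those of log2 differences between classes, which are approximate. CPM are counts per 1000000 UMIs of all cells of a class summed in 1 library.

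The markers went against the label for 19 of the 126 cells. The 12 other pan-endothelial genes (Tek, Tie1, Kdr, Flt1, Eng, Emcn, Erg, Egfl7, Cldn5, Esam, Ramp2 and Ecscr) gave at most 5.64 UMIs per 10000 in these 19 cells, whereas the remaining 107 had at least 12.6, with a median of 62.2 and no cell between. Of the 19 cells, 15 held 242 to 1200 UMIs of stellate and portal fibroblast genes such as Dcn, Col1a1, Col3a1 and Dpt, and 9 of those 15 also held at least 10 UMIs of mesothelial genes such as Msln and Upk3b. A further cell carried platelet genes and 3 cells held none of these lists. Cd34 was present in 18 of the 19 and was the sole rule gene in 13. They lay in IDD+HTF (10 cells) and IDD+HID (9 cells), none was in IDD, and they were deep, with 28.7% of the members' UMIs in IDD+HTF, 23.2% in IDD+HID and 0% in IDD. The 107 cells with at least 10 UMIs per 10000 of the 12 genes, 43 in IDD+HTF, 48 in IDD+HID and 16 in IDD, are called endothelial members below. This split was added after the values were seen. The values of all 126 are given beside some genes and lists. Elsewhere the values are those of endothelial members, and some list counts change over all 126.

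**Figure D1:**
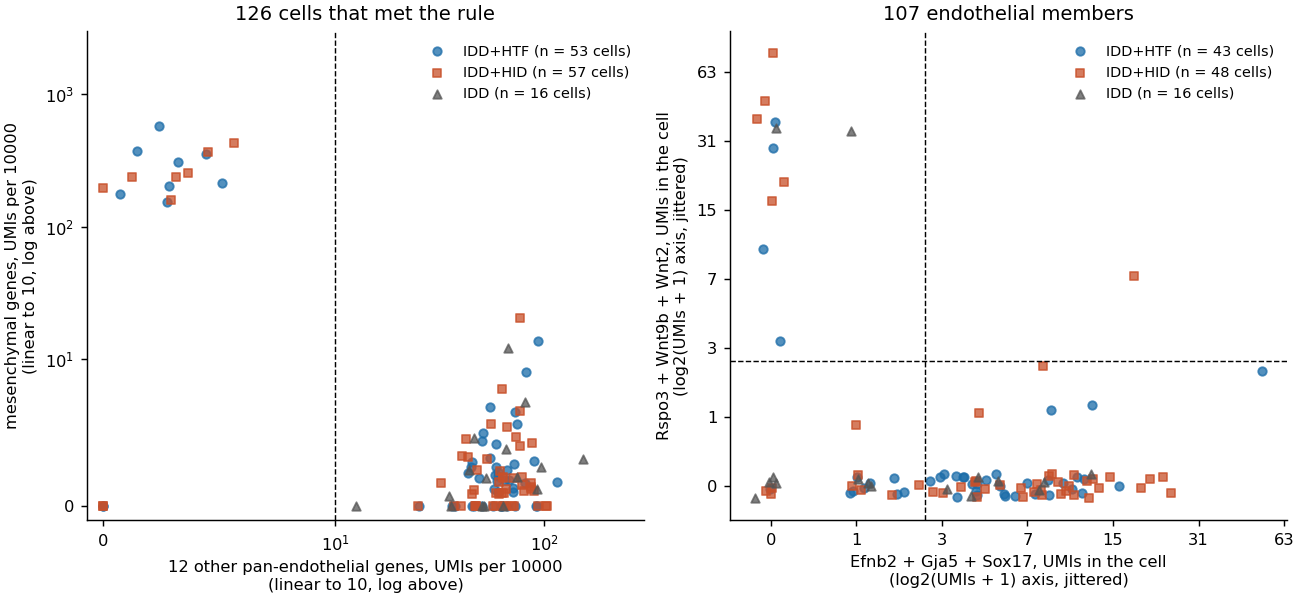
Left, each of the 126 cells by its UMIs per 10000 of the 12 other pan-endothelial genes and of stellate and fibroblast genes, by library, with the limit of 10 dashed. Right, each of the 107 endothelial members by its UMIs of Efnb2, Gja5 and Sox17 and of Rspo3, Wnt9b and Wnt2, with lines just below 3 UMIs. The 19 cells left of the limit all come from IDD+HTF and IDD+HID, and on the right 1 cell lies past both lines.

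The libraries held 55478904 (IDD+HTF), 75404660 (IDD+HID) and 34552858 UMIs (IDD). The endothelial members had 343835, 510543 and 77612 UMIs in that order, with medians of 6509, 10778.5 and 4294.5 per cell, and the deepest cell gave 13.5%, 4.96% and 19.4% of them. The 16 cells of IDD therefore set the precision of every comparison with IDD. Each pair of libraries shared 1 cell barcode. The median mitochondrial share in members was 3.89%, 2.71% and 5.19% in IDD+HTF, IDD+HID and IDD. Hepatocyte genes, which droplets of 100 or fewer UMIs carried at 29537, 31549 and 16197 CPM, came to 2173, 2025 and 1688 CPM in the endothelial members and to 2047, 2065 and 2008 CPM in sinusoidal cells. Kupffer cell genes came to 69.8, 56.8 and 0 CPM and lymphocyte genes to 49.4, 23.5 and 12.9 CPM in the endothelial members. The part of free RNA and of other cells' RNA in the results was not tested.

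Members made up 1.65% of the cells in IDD+HTF (1.24 to 2.16), 1.61% in IDD+HID (1.22 to 2.08) and 1.20% in IDD (0.687 to 1.94), and these intervals overlapped. The rule asks for 3 UMIs, so that depth bears on the share, and among cells with at least 6000 UMIs members were 2.82%, 2.17% and 0.633% in IDD+HTF, IDD+HID and IDD. The last of these shares rests on the members of 8620 and 15077 UMIs alone, and no interval was made for it. The suspension was a mixture of 5% hepatocyte and 95% non-parenchymal fractions, so shares do not give the makeup of the liver. Among members and sinusoidal cells together, members were 5.46% in IDD+HTF, 4.11% in IDD+HID and 3.73% in IDD, and endothelial members 4.47%, 3.48% and 3.73% of endothelial members and sinusoidal cells. The lowest rate of the 3 rule genes inside the rule was 5.52, 5.01 and 5.84 per 10000 in IDD+HTF, IDD+HID and IDD, and the highest rate outside it, among cells with 3 UMIs, was 4.99, 4.89 and 4.36 per 10000.

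The values of the rule genes are given as a description, since they chose the cells. Vwf (chr6:125546774-125686679, GRCm38, + strand) stood at 468, 515 and 1056 CPM in endothelial members of IDD+HTF, IDD+HID and IDD, from 161, 263 and 82 UMIs. Its level in IDD lay above the other libraries, with intervals that did not overlap. The median rate of the 3 rule genes was likewise 11.3, 10.9 and 18.9 per 10000 UMIs in endothelial members of IDD+HTF, IDD+HID and IDD, where the minimum of 3 UMIs asks for a higher rate in the shallower cells of IDD. In IDD, 2 cells with central vein genes held 22 and 17 of the 82 UMIs of Vwf. The parts of depth and of these cells in the level of IDD were not tested. In the 11 endothelial members with under 5 UMIs per 10000 of the sinusoidal genes Stab2, Clec4g, Gpr182 and Oit3 the log2 ratios of Vwf to IDD were 0.60 for IDD+HTF and 0.78 for IDD+HID, the other way round. Of these cells 4 lay in IDD, with 3, 1, 0 and 7 UMIs of Vwf, and 1 cell of IDD+HID held 24. No interval was made for these ratios, and so few cells do not settle the direction. In sinusoidal cells Vwf stood at 4.57, 3.71 and 8.02 CPM. Adgrg6 stood at 742, 676 and 593 CPM in the endothelial members, and the interval of IDD overlapped those of both other libraries. Cd34 (chr1:194938819-194961279, GRCm38, + strand) was sparse, at 32.0, 88.1 and 77.3 CPM from 11, 45 and 6 UMIs. Over all 126 members Cd34 stood at 349, 242 and 77.3 CPM, and 62 of its 335 UMIs lay in endothelial members. Of the 107 endothelial members, 92 held a UMI of Adgrg6, 81 of Vwf and 36 of Cd34, and 67 held Vwf and Adgrg6 together.

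The endothelial members fell into cells with central vein genes and cells with arterial or portal genes, with little overlap. At least 3 UMIs of Rspo3, Wnt9b and Wnt2, the central vein genes, were found in 12 of the 107 cells, at least 3 UMIs of Efnb2, Gja5 and Sox17 in 71, and both in 1. The remaining 25 cells had under 3 UMIs of each sum, with a median depth of 5003 UMIs in IDD+HTF, 9927 in IDD+HID and 2586 in IDD, and 8 of them had none of these 6 genes. The 11 cells with central vein genes alone comprised 4 in IDD+HTF, 5 in IDD+HID and 2 in IDD (76977 UMIs in all), and the 70 with arterial genes alone 30, 33 and 7 (675311 UMIs). At least 3 UMIs of the lymphatic genes Prox1, Mmrn1 and Pdpn were found in 0 of the 107 endothelial members and in 11 of the 19 cells without endothelial genes. Rspo3 was confined to few cells, since 4, 5 and 2 endothelial members of IDD+HTF, IDD+HID and IDD held it, with 64, 155 and 56 UMIs. Sinusoidal cells also carried the wider lists. The 12 central vein genes came to 3865, 5290 and 4716 CPM in endothelial members and 2460, 2523 and 2455 CPM in sinusoidal cells. The 14 portal and arterial genes came to 4938, 4280 and 3389 CPM and 2016, 1534 and 1844 CPM. Sinusoidal cells with 3 UMIs of these sums were not counted, and the types are named by these counts alone.

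Genes that took no part in this split differed between the 2 types. Summed over the 3 libraries, Cdh13 (T-cadherin) stood at 831 CPM (640.3 to 1062) in the central vein type and 167 CPM (138 to 201) in the arterial type, and was higher in the central vein type in all 3 libraries. The fatty acid binding protein gene Fabp4 stood at 6430.5 CPM (5876 to 7023) in the central vein type and 1855 CPM (1754 to 1961) in the arterial type. Endoglin (Eng), a co-receptor of BMP9 and TGF-beta, stood at 2390.3 and 779 CPM in the same order. The central vein type was also the higher one for Entpd1 (CD39, which breaks down extracellular ATP) at 546 and 59.2 CPM, for the vitamin K-dependent ligand Gas6 at 494 and 69.6 CPM and for the lysosomal protease Ctsh at 702 and 14.8 CPM, each in all 3 libraries. Fmo2, a flavin monooxygenase, had 83 UMIs in the central vein type, of which 81 were in IDD+HID, and 1 UMI in the arterial type. Among the rule genes, Vwf stood at 2001 and 450.2 CPM and Adgrg6 at 13.0 and 776 CPM in the central vein and arterial types, so that Vwf led the choice of the central vein cells and Adgrg6 that of the arterial ones.

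Ednrb, Jag1, Efnb1 and Ly6a were among the genes that were higher in the arterial type. The endothelin receptor gene Ednrb stood at 129.9 CPM (62.3 to 239) in the central vein type and 2455 CPM (2338 to 2576) in the arterial type. The Notch ligand Jag1 stood at 77.9 and 546 CPM and the ephrin Efnb1 at 143 and 1315 CPM in the central vein and arterial types. Ly6a (Sca-1) stood at 338 and 3812 CPM, the laminin-related netrin Ntn4 at 195 and 1388 CPM and the lymphangiogenic growth factor Vegfc at 13.0 and 312 CPM. The fatty acid transporter Cd36 stood at 156 and 1140.2 CPM, Gpihbp1, which anchors lipoprotein lipase to capillaries, at 416 and 2066 CPM and the tight junction gene Cldn5 at 52.0 and 503 CPM. Each of these genes was higher in the arterial type in all 3 libraries. Calcrl, which encodes the receptor of calcitonin gene-related peptide and adrenomedullin, went the other way, at 1390.0 and 379 CPM, and was higher in the central vein type in 2 of the 3 libraries. Atp13a3, which encodes a polyamine transporter, had 1 UMI in the central vein type and 535 UMIs in 49 of the 70 arterial cells. Bmp6 had 0 UMIs in the 76977 UMIs of the central vein type and 27 UMIs (40.0 CPM) in the arterial type.

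**Figure D2:**
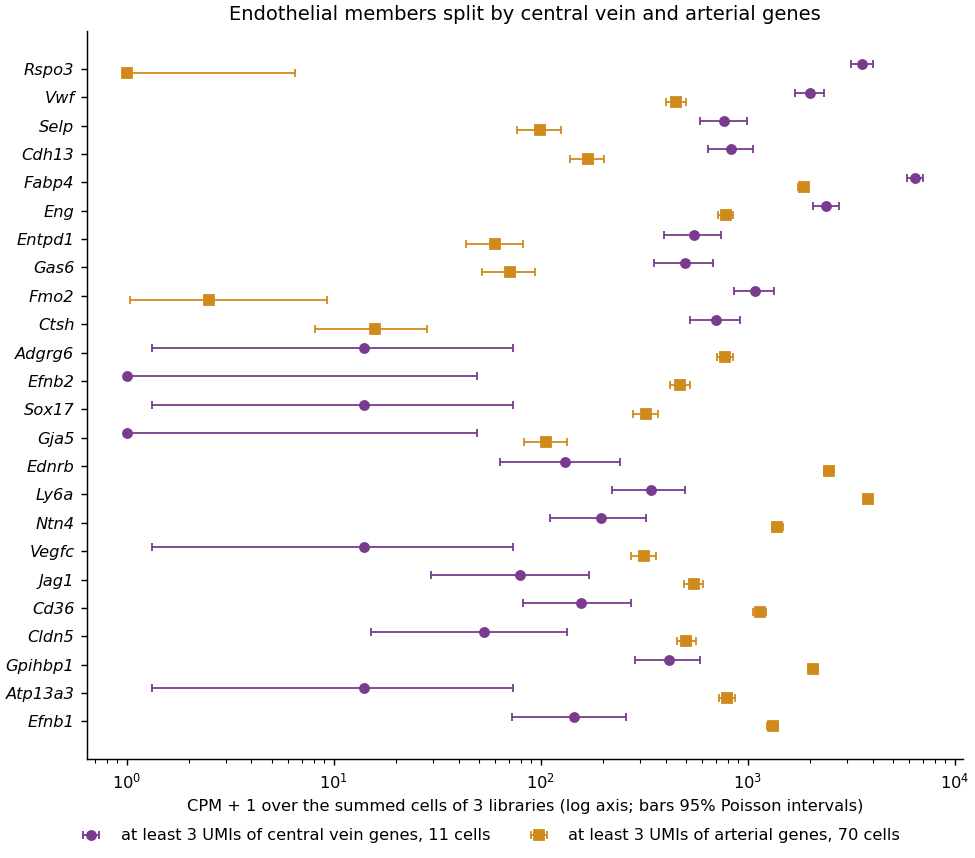
CPM + 1 on a log axis, with 95% Poisson intervals, of 24 genes in endothelial members with at least 3 UMIs of central vein genes (11 cells) and of arterial genes (70 cells), summed over 3 libraries. Vwf, Fabp4 and Eng lie higher in the central vein type, and Ednrb, Ly6a, Ntn4 and Jag1 in the arterial type.

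The comparison with the 918 (IDD+HTF), 1330 (IDD+HID) and 413 (IDD) sinusoidal cells describes what the rule separated and was not tested, because both classes were chosen by their marker counts. Sinusoidal cells had at least 3 UMIs and 5 per 10000 of Stab2, Clec4g, Gpr182 and Oit3, met the same limits for Pecam1, Cdh5 and Kupffer cell genes, and were no members. The median rate of these 4 genes was 18.8, 18.8 and 11.7 per 10000 in endothelial members of IDD+HTF, IDD+HID and IDD, and 66.1, 66.0 and 52.4 in sinusoidal cells. Sinusoidal markers were thus present in most members, and 96 of the 107 held at least 5 per 10000, while 8 reached the lower quartile of the sinusoidal cells of their library. In droplets of 100 or fewer UMIs these 4 genes came to 675, 845 and 306 CPM, below the 2588, 2388 and 1314 CPM of the endothelial members. Of 6024 genes with at least 50 UMIs in both classes together in each library, 72 (1.2%) were at least 2-fold higher and 178 (2.95%) at least 2-fold lower in endothelial members in all 3 libraries. For all 126 members the counts were 70 (1.16%) and 192 (3.19%). With TMM scaling 47 genes were higher and 301 lower in endothelial members, and 53 and 297 in all members.

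Nrg1 and Atp13a3 were among the 20 genes with the highest ratios of endothelial members over sinusoidal cells. The neuregulin gene Nrg1, a ligand of ERBB receptors, stood at 428, 503 and 747 CPM in endothelial members of IDD+HTF, IDD+HID and IDD, against 4.28, 2.94 and 10.9 CPM in sinusoidal cells. Atp13a3 stood at 483, 697 and 515 CPM, against 7.96, 7.71 and 13.7 CPM in sinusoidal cells. Both genes were close to absent from sinusoidal cells in every library. Jag1 stood at 364, 515 and 374 CPM against 23.1, 24.1 and 35.5 CPM, and Vegfc at 285, 270.3 and 193 CPM against 15.5, 12.9 and 26.9 CPM. The transcription factor gene Mecom stood at 439, 488 and 477 CPM against 52.6, 52.4 and 100.2 CPM, and the insulin receptor gene Insr at 823, 631 and 1404 CPM against 145, 111 and 164 CPM. Ly6a and the cystatin Cst3 were the most abundant of the 20 named genes, Ly6a at 2466, 3915 and 2345 CPM against 373, 413 and 499 CPM and Cst3 at 2399, 2646 and 2512 CPM against 464, 485 and 404 CPM. The other 12 named higher genes were Edn1, Ednrb, Depp1, Col5a2, Plac8, Slc12a7, Lrg1, Mbd4, Bcam, AU021092, Crip1 and Abcg2.

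Stab1, Stab2, Mrc1 and Fcgr2b were among the lower genes. Of 16 measured genes of the endocytic receptor and lysosome list, 7 were at least 2-fold lower in all 3 libraries (Clec4g, Ctsl, Fcgr2b, Lrp1, Mrc1, Stab1 and Stab2) and 0 higher, beside 2.95% and 1.2% of all genes. Clec4g and Stab2 were among the genes that chose the sinusoidal cells, so their place in this count follows from the rule. The level of Stab2, the hyaluronan scavenger receptor, was 5.27, 4.99 and 4.76 times lower in endothelial members of IDD+HTF, IDD+HID and IDD. Fcgr2b, which clears immune complexes, stood at 713, 697 and 374 CPM in endothelial members, against 2516, 2728 and 2106 CPM in sinusoidal cells. Of the iron list, 3 of 14 measured genes were lower and 0 higher, among them the iron exporter Slc40a1 at 87.3, 119 and 64.4 CPM against 249.6, 406 and 157 CPM in sinusoidal cells. The metal importer Slc39a8 stood at 66.9, 66.6 and 25.8 CPM against 184, 252 and 139 CPM, and Steap4 had 1 UMI in all endothelial members together. The 15 named lower genes included Colec11, Rgs5 and Lrat of the stellate cell list, whose genes came to 1741, 1502 and 1451 CPM in sinusoidal cells and to 282, 208 and 258 CPM in endothelial members. The part of stellate RNA in the sinusoidal values was not tested.

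**Figure D3:**
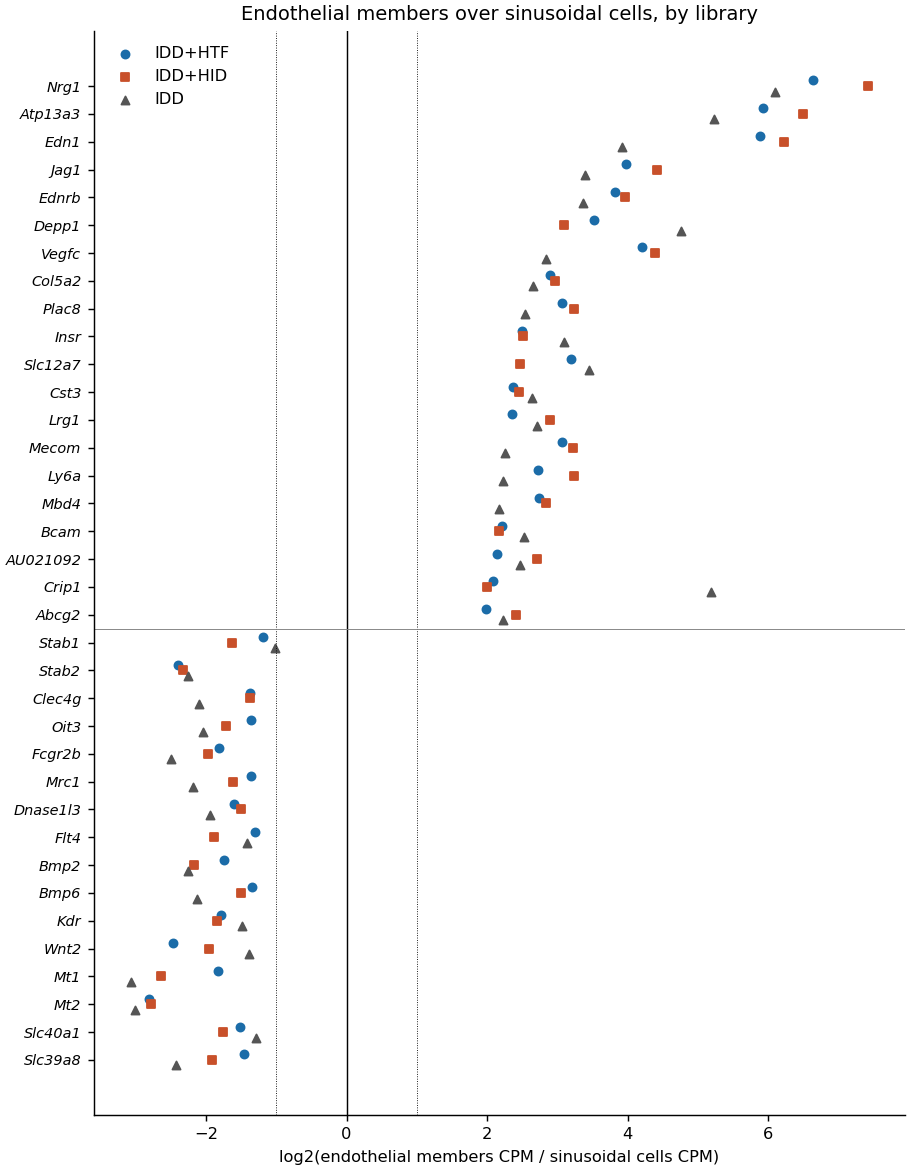
log2 ratio of CPM in endothelial members over sinusoidal cells for 20 named higher genes (above the line) and 16 genes of the sinusoidal, BMP, Wnt, metallothionein and iron lists (below it), 1 point per library, with dotted lines at 2-fold. In all 3 libraries each of the 20 genes lies right of 0 and each of the 16 left of it. Stab2, Clec4g and Oit3 are rule genes of the sinusoidal cells and shown as a description.

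The groups were compared as ratios of CPM among genes with 50 or more UMIs over both libraries compared, and at least 2-fold is used as a rule of size. In endothelial members of IDD+HTF over IDD, 1537 genes were measured, of which 160 (10.4%) were at least 2-fold higher and 43 (2.8%) lower. In IDD+HID over IDD, 446 of 2348 genes (19.0%) were higher and 117 (4.98%) lower. In IDD+HID over IDD+HTF, 127 of 3422 genes (3.71%) were higher and 109 (3.19%) lower. The first 2 comparisons share the 16 cells of IDD. Over all 126 members the shares were 17.4% higher and 5.06% lower in IDD+HTF over IDD, 21.5% and 6.36% in IDD+HID over IDD, and 2.46% and 3.74% in IDD+HID over IDD+HTF. The median log2 ratio of all genes measured in endothelial members was 0.16, 0.30 and 0.09 in these comparisons. TMM scaling moved the first 2 by 0.27 and 0.31, giving 277 genes higher and 22 lower for IDD+HTF over IDD and 735 and 54 for IDD+HID over IDD, while median-of-ratios scaling gave 110 and 67, and 274 and 208. For IDD+HID over IDD+HTF median-of-ratios scaling gave 94 higher and 133 lower. With at least 1 UMI in each library in place of 50 in the pair, more genes were lower than higher. They numbered 1148 higher and 2955 lower in IDD+HTF over IDD, and 1231 and 3243 in IDD+HID over IDD. The excess of higher genes in the comparisons with IDD thus depended on the filter of UMIs.

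In the comparisons of all 126 members with IDD, the leading higher genes came from the cells without endothelial genes. Gsn (gelsolin) had 1589, 1052 and 0 UMIs in members of IDD+HTF, IDD+HID and IDD but 2, 8 and 0 in endothelial members. Col1a2, a fibrillar collagen gene, had 770, 411 and 1 UMIs in members and 0, 0 and 1 in endothelial members. The ferritin heavy chain gene Fth1 stood at 1952, 2123 and 941 CPM in members, with a ratio of 2.08 (1.63 to 2.67) in IDD+HTF over IDD, and at 698, 1199 and 941 CPM in endothelial members, with a ratio of 0.742 (0.569 to 0.978). Its direction therefore turned with the 19 cells, and the values below are those of endothelial members.

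Bmp2 and Bmp6 were lower in endothelial members than in sinusoidal cells in each library, the sole 2 genes past 2-fold among 7 measured of the list of BMP ligands and targets, whose median log2 ratio was 0.49 against -0.07 for all genes. Beside them, 2.95% of all genes were lower and 1.2% higher in all 3 libraries. Bmp6 (chr13:38345107-38500302, GRCm38, + strand) stood at 37.8 CPM (20.1 to 64.7) in IDD+HTF, 52.9 CPM (34.9 to 76.9) in IDD+HID and 12.9 CPM (0.326 to 71.8) in IDD, from 13, 27 and 1 UMIs. The intervals of all 3 overlapped, and the ratios to IDD, 2.93 (0.441 to 125) for IDD+HTF and 4.10 (0.677 to 168) for IDD+HID, rest on 1 UMI in IDD. Sinusoidal cells stood at 96.0, 149.6 and 56.1 CPM in the same order. Thinned to 1000 UMIs, 3.27%, 4.45% and 1.39% of endothelial members and 8.33%, 13.2% and 5.11% of sinusoidal cells held a Bmp6 UMI (unthinned, 20.9%, 35.4% and 6.25%, and 41.2%, 61.9% and 18.6%). At this depth a difference in Bmp6 between the groups was not detectable in the larger vessels. Bmp2 stood at 713, 609 and 322 CPM, with IDD the lowest library, and was 2.21-fold (1.46 to 3.49) higher in IDD+HTF over IDD, with a ratio of 1.89 (1.26 to 2.97) in IDD+HID over IDD. Over all 126 members the ratio of IDD+HTF over IDD was 1.58 (1.04 to 2.49), below 2-fold. In sinusoidal cells the ratios of Bmp2 were 1.55 (1.49 to 1.61) and 1.79 (1.72 to 1.86), and the log2 difference between the classes was 0.51 (-0.08 to 1.11) and 0.08 (-0.51 to 0.67), with intervals that include 0. Sinusoidal marker genes, among them Bmp2, came to 7824, 7780.0 and 4316 CPM in endothelial members and were also lowest in IDD, and in the 11 endothelial members with under 5 UMIs per 10000 of Stab2, Clec4g, Gpr182 and Oit3 the log2 ratio of Bmp2 in IDD+HTF over IDD was -1.46. That ratio has no interval and rests on few cells, 4 of them in IDD. The part of sinusoidal RNA in the difference was not tested.

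Id1, an early SMAD1/5 target that also answers other signals, stood at 777, 697 and 425 CPM in IDD+HTF, IDD+HID and IDD, with ratios to IDD of 1.83 (1.27 to 2.71) and 1.64 (1.15 to 2.42). Both libraries lay above IDD, short of 2-fold. The inhibitory SMAD gene Smad6 stood at 317, 296 and 438 CPM and Smad7 at 398, 341 and 464 CPM, and their intervals overlapped between every pair of libraries. Of 6 measured genes of the list of BMP ligands and targets, 1 (Bmp2) was at least 2-fold higher and 0 lower in IDD+HTF over IDD, beside 10.4% and 2.8% of all genes, and 0 were past 2-fold in IDD+HID over IDD, beside 19.0% higher and 4.98% lower, and in IDD+HID over IDD+HTF, beside 3.71% and 3.19%. In the same order 0 of 6, 1 of 7 (Bmp4, lower) and 0 of 7 were past 2-fold over all 126 members. Of all genes 17.4%, 21.5% and 2.46% were higher there and 5.06%, 6.36% and 3.74% lower. Eng was lower in IDD+HID, at 1149, 779.6 and 1611 CPM, 2.07-fold (1.68 to 2.53) lower than IDD.

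Ferritin light chain was the iron gene with the clearest difference. Ftl1 (chr7:45457944-45459884, GRCm38, - strand), a subunit of the iron storage protein ferritin, stood at 1003 CPM (900.3 to 1115) in IDD+HTF, 2143 CPM (2018 to 2274) in IDD+HID and 825 CPM (635 to 1053) in IDD. IDD+HID stood above both other libraries, with a ratio of 2.60 (2.02 to 3.40) over IDD and 2.14 (1.89 to 2.42) over IDD+HTF, whereas the ratio of IDD+HTF over IDD was 1.22 (0.930 to 1.61). Over all 126 members the ratio of IDD+HID over IDD+HTF was 1.71 (1.55 to 1.88), below 2-fold. Within the arterial type Ftl1 stood at 1043, 2092 and 629 CPM in IDD+HTF, IDD+HID and IDD. In sinusoidal cells it stood at 1218, 2786 and 821 CPM, and free RNA carried it at 1293, 1817 and 732 CPM. Fth1 was 1.72-fold (1.48 to 2.00) higher in IDD+HID over IDD+HTF, below 2-fold. Hfe, which encodes a partner of transferrin receptor 1, stood at 145, 157 and 64.4 CPM with 50, 80 and 5 UMIs, 2.26 (0.905 to 7.25) and 2.43 (1.00 to 7.69) times the level of IDD, with intervals that reach 1. Slc40a1 stood at 87.3, 119 and 64.4 CPM with overlapping intervals. The transferrin receptor gene Tfrc had 5, 2 and 0 UMIs and the importer gene Slc39a14 6, 4 and 0, too few for a comparison. Of the iron list, 1 of 4 measured genes (Hfe) was past 2-fold in IDD+HTF over IDD, 2 of 6 (Ftl1 and Hfe) in IDD+HID over IDD and 1 of 10 (Ftl1) in IDD+HID over IDD+HTF, all of them higher, beside 10.4%, 19.0% and 3.71% of all genes that were higher. For all 126 members 1 of 5 (Fth1), 4 of 7 (Fth1, Ftl1, Hfe and Ncoa4) and 0 of 11 were higher, beside 17.4%, 21.5% and 2.46% of all genes.

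NRF2 is a transcription factor that is freed when cells meet oxidants or electrophiles and raises glutathione, thioredoxin, NADPH and ferritin genes. Of its listed targets, 4 of 8 measured (Ftl1, Gclm, Prdx1 and Taldo1) were at least 2-fold higher in IDD+HID over IDD, beside 19.0% of all genes, and 0 lower, with a median log2 ratio of 1.02 against 0.30 for all genes. In IDD+HTF over IDD 0 of 5 were past 2-fold, and in IDD+HID over IDD+HTF 2 of 13 (Blvrb and Ftl1) were higher, beside 3.71% of all genes. When all 126 members were counted, 6 of 12 were higher in IDD+HID over IDD, with Fth1 and Sqstm1 beside these 4, 1 of 7 (Fth1) in IDD+HTF over IDD and 1 of 13 (Blvrb) in IDD+HID over IDD+HTF. Of all genes 21.5%, 17.4% and 2.46% were higher there, in the same order. The peroxiredoxin gene Prdx1 stood at 401, 684 and 309 CPM in IDD+HTF, IDD+HID and IDD, 2.21-fold (1.46 to 3.50) higher in IDD+HID over IDD. The glutathione synthesis gene Gclm stood at 72.7, 118 and 12.9 CPM with 25, 60 and 1 UMIs, so that its ratio of 9.12 (1.58 to 366) in IDD+HID over IDD rests on 1 UMI, and over IDD+HTF it was 1.62 (0.998 to 2.69). Taldo1, an enzyme of the pentose phosphate pathway, stood at 98.9, 153 and 64.4 CPM and Blvrb, which reduces biliverdin, at 46.5, 127 and 77.3 CPM, both from few UMIs in IDD. IDD+HID was the highest library for each of these 4 genes. Heme oxygenase Hmox1 had 25, 36 and 0 UMIs and Nqo1 9, 26 and 3 UMIs. In sinusoidal cells the ratios of IDD+HID over IDD were 3.29 (2.59 to 4.24) for Gclm and 3.39 (3.22 to 3.58) for Ftl1.

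The promoters of these genes were read for the core of the antioxidant response element, TGACNNNGC, which NRF2 binds with small MAF proteins. Over 250 bases before to 50 after the annotated start (RefSeq, GRCm38.p6), 2 of the 6 NRF2 or heme genes past 2-fold in IDD+HID over IDD or over IDD+HTF (Bach1, Blvrb, Ftl1, Gclm, Prdx1 and Taldo1) held a match on either strand in any of their promoters, beside 3781 of 27025 genes in the table (14.0%). The 2 sequences with a match are shown because Gclm and Prdx1 were among the higher genes of IDD+HID. Capitals mark the match, which lies on the strand opposite to the one printed, 134 bases before the start of Gclm and 133 before that of Prdx1. A match is a description of the letters and not a site of binding in these cells.
Gclm promoter, chr3:122245307-122245606, + strand: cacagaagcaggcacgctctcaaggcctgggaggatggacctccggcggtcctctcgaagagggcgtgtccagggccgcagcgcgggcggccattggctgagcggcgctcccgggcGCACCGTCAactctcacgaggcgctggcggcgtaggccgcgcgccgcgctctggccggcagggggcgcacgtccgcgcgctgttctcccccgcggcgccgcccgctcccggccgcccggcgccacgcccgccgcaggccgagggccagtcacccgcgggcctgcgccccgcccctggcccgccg
Prdx1 promoter, chr4:116685349-116685648, + strand: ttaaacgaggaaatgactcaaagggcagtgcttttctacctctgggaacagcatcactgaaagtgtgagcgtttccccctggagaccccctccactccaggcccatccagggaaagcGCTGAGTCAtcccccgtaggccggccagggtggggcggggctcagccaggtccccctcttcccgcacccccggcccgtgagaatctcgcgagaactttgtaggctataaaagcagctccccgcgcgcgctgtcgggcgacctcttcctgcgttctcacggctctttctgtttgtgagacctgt

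Ednrb (chr14:103814625-103844402, GRCm38, - strand), the receptor that clears endothelin and releases nitric oxide from endothelium, stood at 1119.7 CPM (1011 to 1237) in IDD+HTF, 2793 CPM (2650.0 to 2942) in IDD+HID and 541 CPM (390.0 to 731) in IDD, in 36, 39 and 8 cells. The 3 intervals did not overlap, and IDD+HID was 5.16-fold (3.80 to 7.19) higher than IDD and 2.49-fold (2.23 to 2.80) higher than IDD+HTF. Within the arterial type alone the levels were 1218, 3639.9 and 899 CPM, and no cell gave more than 14.3%, 6.87% and 26.2% of the UMIs in IDD+HTF, IDD+HID and IDD. Sinusoidal cells held far less, 79.3, 179.6 and 52.7 CPM, with a ratio of 3.41 (2.77 to 4.24) in IDD+HID over IDD. In IDD+HTF over IDD Ednrb was 2.07-fold (1.50 to 2.92) higher in endothelial members, and its ratio over all 126 members was 1.48 (1.07 to 2.08), below 2-fold. Edn1, the vasoconstrictor endothelin 1, stood at 270.5, 209.6 and 1172 CPM in endothelial members, but a single cell held 78.0% of the Edn1 UMIs of IDD. The ratios to IDD were 0.231 (0.171 to 0.311) for IDD+HTF and 0.179 (0.134 to 0.239) for IDD+HID with that cell, and 0.846 (0.518 to 1.45) and 0.655 (0.404 to 1.12) without it, both then short of 2-fold. Leaving out the cell of a library with the most UMIs of a gene, here and below, was chosen after seeing the data. In sinusoidal cells Edn1 stood at 4.57, 2.80 and 77.3 CPM, also highest in IDD.

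Adhesion genes differed one by one. Vcam1, the receptor for leukocyte integrin alpha 4, stood at 788, 948 and 399 CPM in IDD+HTF, IDD+HID and IDD, 2.37-fold (1.65 to 3.53) higher in IDD+HID over IDD, with a ratio of 1.97 (1.36 to 2.96) for IDD+HTF. With all 126 members the ratio of IDD+HID over IDD was 1.85 (1.28 to 2.75), below 2-fold. In sinusoidal cells it stood at 333, 249.7 and 238 CPM, and the log2 difference between the classes was 1.18 (0.64 to 1.72) for IDD+HID over IDD. Icam1 stood at 236, 243 and 361 CPM with overlapping intervals, while in sinusoidal cells it was 2.33-fold (1.98 to 2.76) and 2.28-fold (1.94 to 2.68) higher in IDD+HTF and IDD+HID. The log2 differences between the classes for Icam1 were -1.83 (-2.50 to -1.17) and -1.76 (-2.39 to -1.12), with intervals that exclude 0. P-selectin (Selp), stored beside von Willebrand factor, stood at 34.9, 215 and 77.3 CPM, in 2, 9 and 3 cells, and 1 cell gave 54.5% of its UMIs in IDD+HID, with a ratio of 2.79 (1.24 to 7.76) to IDD, and 1.30 (0.555 to 3.70) without that cell. E-selectin (Sele) had 34, 34 and 19 UMIs, with 89.5% of those of IDD in 1 cell. The thrombin receptor gene F2r, at 369, 378 and 155 CPM, was 2.39-fold (1.32 to 4.75) and 2.44-fold (1.37 to 4.81) higher in IDD+HTF and IDD+HID than in IDD, and over all 126 members the ratios were 1.74 (0.965 to 3.46) and 1.91 (1.07 to 3.75).

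Hspb1, Hspa1a, Ccn1 and Ccn2 were lower in both treated mice than in IDD. Hspb1, a small heat shock protein, stood at 209, 419 and 1855 CPM in IDD+HTF, IDD+HID and IDD, 8.86-fold (6.63 to 11.9) lower in IDD+HTF and 4.43-fold (3.56 to 5.49) lower in IDD+HID. The near-identical chaperone genes Hspa1a and Hspa1b, between which reads may be split, stood at 1448, 623 and 2925 CPM and 1992, 639 and 3131 CPM, and 8 and 9 of the 16 cells of IDD held them. The cell with the most UMIs gave 41.0% of Hspb1, 31.3% of Hspa1a, 33.6% of Ccn1 and 56.7% of Ccn2 in IDD. Without that cell Hspb1 was still 5.65-fold (4.08 to 7.85) and 2.82-fold (2.17 to 3.65) lower in IDD+HTF and IDD+HID than in IDD, while Hspa1a was 1.50-fold (1.25 to 1.80) and 3.49-fold (2.86 to 4.24) lower, short of 2-fold in IDD+HTF. In sinusoidal cells Hspa1b stood at 1447, 899.6 and 858 CPM, with a log2 difference between the classes of -2.36 (-2.61 to -2.11) for IDD+HID over IDD. Ccn1 and Ccn2 encode matricellular proteins of the mechanosensitive YAP pathway. Ccn1 stood at 439, 615 and 1456 CPM, 3.32-fold (2.57 to 4.26) lower in IDD+HTF and 2.37-fold (1.89 to 2.94) lower in IDD+HID, and Ccn2 at 69.8, 99.9 and 387 CPM, 5.54-fold (3.13 to 9.90) and 3.87-fold (2.38 to 6.19) lower. Without the cell of IDD with the most UMIs of the gene, Ccn1 was 2.32-fold (1.74 to 3.08) lower in IDD+HTF and 1.66-fold (1.27 to 2.14) lower in IDD+HID, below 2-fold in the second, and Ccn2 2.98-fold (1.39 to 6.09) and 2.08-fold (1.04 to 3.88) lower. The sialyltransferase gene St3gal4, at 532, 498 and 1314 CPM, was 2.47-fold (1.92 to 3.16) and 2.64-fold (2.08 to 3.34) lower, in 33, 46 and 14 cells. Of 20 measured genes of the immediate early list, which includes the heat shock genes, 3 were higher (Fosb, Ier2 and Zfp36) and 2 lower (Hspa1a and Hspb1) in IDD+HTF over IDD, beside 10.4% and 2.8% of all genes. In IDD+HID over IDD 4 were higher and 5 lower, beside 19.0% and 4.98% of all genes. Fosb, an AP-1 subunit, stood at 619, 1087 and 206 CPM, with 93.8% of its UMIs of IDD in 1 cell. Fos stood at 2958, 3619.7 and 2010.0 CPM, with ratios of 1.47 (1.24 to 1.75) and 1.80 (1.53 to 2.13).

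Mir6236 and Lars2, loci at which ribosomal RNA reads are often counted, stood at 3691, 2059 and 10475 CPM and 2911, 1328 and 4651 CPM in endothelial members of IDD+HTF, IDD+HID and IDD, and at 9085, 7318 and 73118 CPM and 6361, 4358 and 12523 CPM in free RNA. IDD was the highest library for both, and the level of every other gene of IDD is counted against a total that includes them. Hepatocyte transcripts Mup20 and Serpina1e were also lower in IDD+HID, at 451, 174 and 863 CPM and 227, 109.7 and 477 CPM, and free RNA held them at 5328, 2635 and 3557 CPM and 4052, 2159 and 1932 CPM. The part of free RNA in these differences was not tested. Tspan15 and Crip1 were named as lower in both comparisons with IDD, but 1 cell gave 89.3% and 83.3% of their UMIs in IDD, and without it the ratios of IDD+HTF and IDD+HID to IDD were 1.64 (0.504 to 8.43) and 1.51 (0.478 to 7.66) for Tspan15 and 1.34 (0.601 to 3.53) and 1.29 (0.589 to 3.33) for Crip1, on the other side of 1. The other named lower genes were Khdc4, Serpina3f and the co-chaperone gene Dnajb1, at 75.6, 56.8 and 283 CPM, 69.8, 104 and 361 CPM and 294, 123 and 528 CPM. For Dnajb1 1 cell gave 70.7% of the UMIs in IDD, and without it the ratio of IDD+HID over IDD was 0.643 (0.344 to 1.31), short of 2-fold lower.

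**Figure D4:**
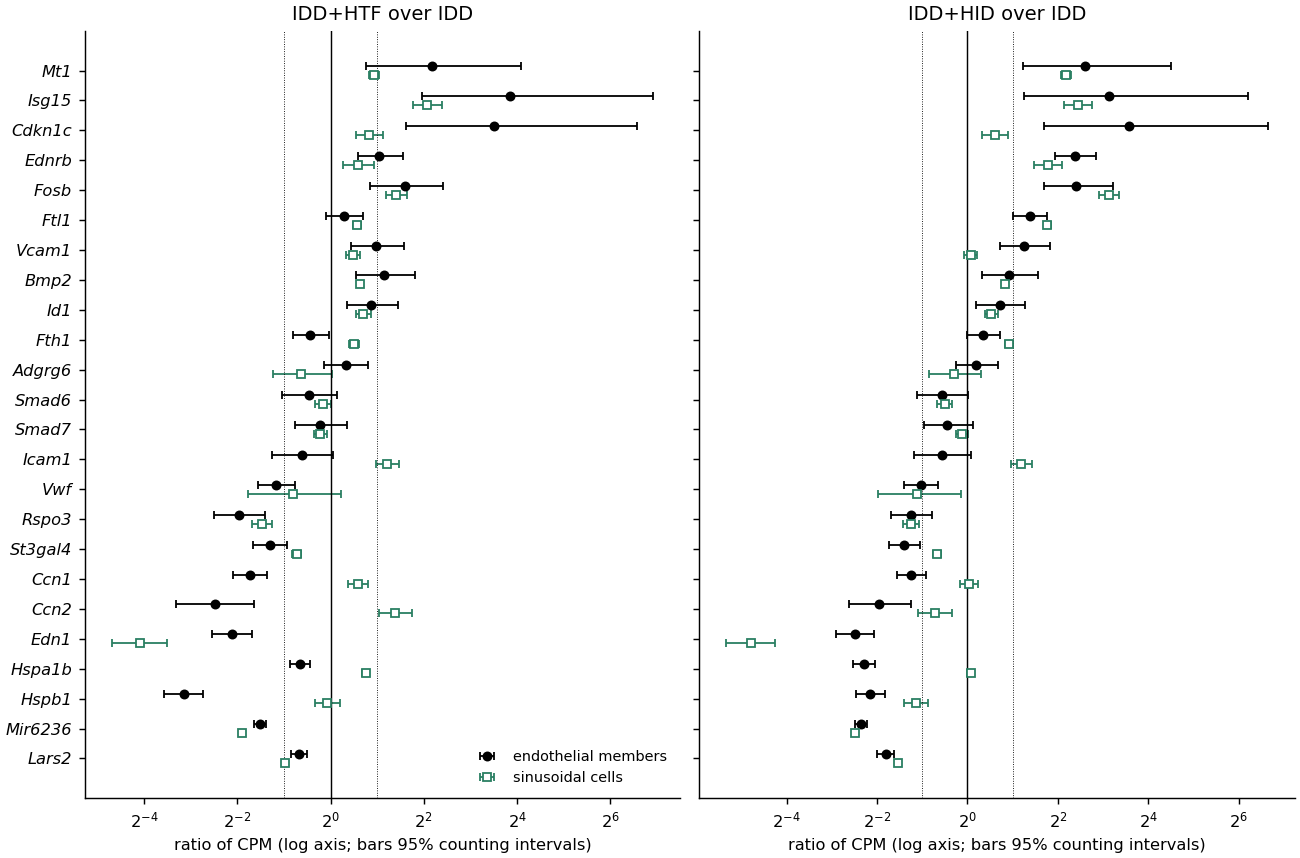
Ratio of CPM (log axis) of IDD+HTF over IDD and of IDD+HID over IDD for 24 genes in endothelial members (filled circles) and sinusoidal cells (open squares), with 95% counting intervals and dotted lines at 2-fold. Isg15 and Cdkn1c lie highest, Hspb1 and Mir6236 lie low in both panels, Edn1 lies low with 1 cell that holds most of its UMIs in IDD, Vwf is a rule gene and shown as a description, and Icam1 lies left of 1 in endothelial members and right of it in sinusoidal cells.

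Isg15, Cdkn1c and Mt1 were higher in both treated mice than in IDD. Isg15, a ubiquitin-like protein induced by interferons, stood at 372, 227 and 25.8 CPM in IDD+HTF, IDD+HID and IDD, in 27, 31 and 2 cells, 14.4-fold (3.92 to 121) higher in IDD+HTF and 8.82-fold (2.39 to 73.7) higher in IDD+HID. In sinusoidal cells its ratios were 4.22 (3.41 to 5.27) and 5.40 (4.39 to 6.72). Of 8 measured interferon genes, 1 (Isg15) was higher and 1 (Gbp4) lower in IDD+HTF over IDD, beside 10.4% and 2.8% of all genes, and 3 (Irf1, Isg15 and Rsad2) were higher and 0 lower in IDD+HID over IDD, beside 19.0% and 4.98%. Cdkn1c, an inhibitor of cyclin-dependent kinases, stood at 294, 308 and 25.8 CPM, 11.4-fold (3.08 to 95.4) and 11.9-fold (3.25 to 99.4) higher, from 2 UMIs in IDD. The metallothionein gene Mt1, which buffers zinc and copper, stood at 233, 313 and 51.5 CPM, 4.51-fold (1.70 to 17.0) and 6.08-fold (2.33 to 22.6) higher, against 828, 1953 and 432 CPM in sinusoidal cells. The activin subunit gene Inhbb stood at 166, 157 and 25.8 CPM and the basement membrane collagen Col4a2 at 279, 231 and 77.3 CPM, each higher in both treated mice. Both had few UMIs in IDD, where Inhbb stood at the level of the 2 UMIs of Cdkn1c. Of the basement membrane list, 1 of 10 measured genes (Col4a2) was higher in IDD+HTF over IDD and 1 of 12 (Col4a2) in IDD+HID over IDD. In both 0 were lower, beside 10.4% and 19.0% of all genes higher. Over all 126 members 9 of 16 and 5 of 14 were higher, beside 17.4% and 21.5%. The fatty acid binding protein gene Fabp5 stood at 995, 1103 and 425 CPM, 2.34-fold (1.63 to 3.45) and 2.59-fold (1.83 to 3.81) higher. Of 11 measured sinusoidal marker genes, 5 were higher in IDD+HTF over IDD, beside 10.4% of all genes, and 3 in IDD+HID over IDD, beside 19.0%, whereas over all 126 members 0 were higher in either comparison, beside 17.4% and 21.5%. Among them were Clec4g at 1114, 1162 and 477 CPM and Mrc1 at 701, 705 and 322 CPM, against 2874, 3007 and 2051 CPM and 1796, 2151 and 1466 CPM in sinusoidal cells.

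Several ribosomal protein genes were among the named higher genes, and no list of them was counted. In IDD+HTF over IDD the 12 named higher genes included Rps27, Rps28, Rpl30 and Rpl36a, and in IDD+HID over IDD they included Rps3, Rps4x, Rps24 and Rpl30, beside the translationally controlled tumour protein gene Tpt1. Rps28 stood at 2190.0, 1573 and 670.0 CPM in endothelial members and 1568, 1178 and 720.5 CPM in sinusoidal cells, and Tpt1 at 3080.0, 5010.4 and 1649 CPM and 3385, 5589 and 2708 CPM. Reads of these genes can be shared with processed pseudogenes such as Rps13-ps1, which was named in the same list with 14, 70 and 0 UMIs, so their single values are uncertain. Cox7a2l, a factor of respiratory chain assembly, and the membrane protein gene Itm2c were higher in IDD+HID, at 201, 372 and 38.7 CPM and 308, 489.7 and 77.3 CPM, both from few UMIs in IDD. A few named genes rested on 1 cell. Of the 80 UMIs of the immunoglobulin gene Igkc in IDD+HTF, 1 cell held 97.5%, and of the 51 UMIs of the MHC class II chaperone Cd74 1 cell held 96.1%, while both had 0 UMIs in IDD. Cxcl9 and Cenpf had 3 UMIs each in IDD, in 1 cell, and stood at 265, 102 and 38.7 CPM and 270.5, 25.5 and 38.7 CPM.

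**Figure D5:**
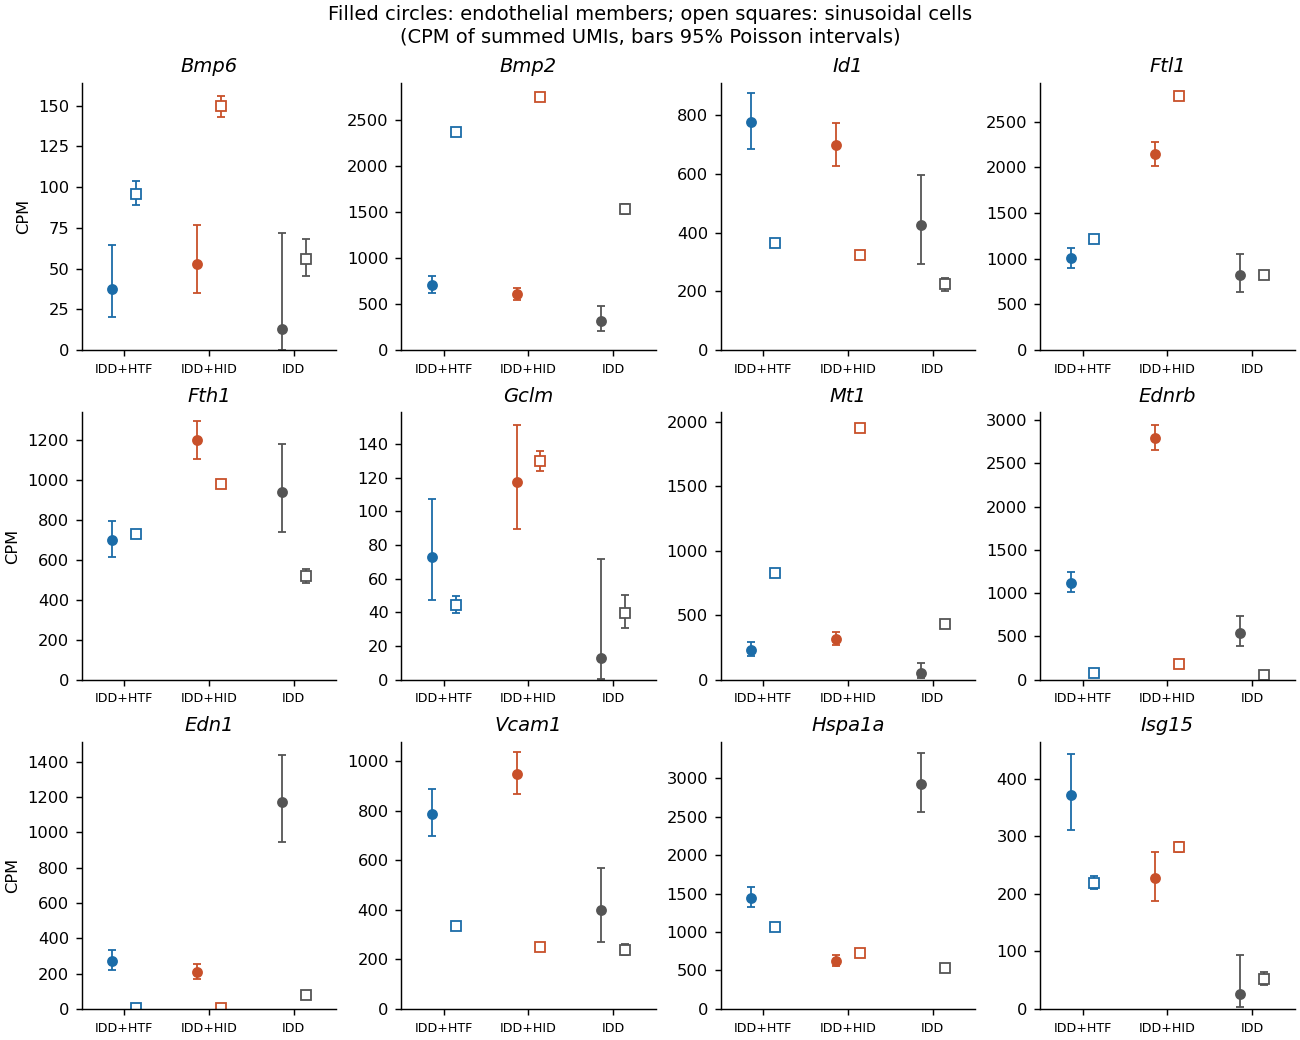
CPM with 95% Poisson intervals of 12 genes in endothelial members (filled circles) and sinusoidal cells (open squares) of IDD+HTF, IDD+HID and IDD. Bmp6 and Bmp2 lie below the sinusoidal level in every library, Ednrb, Edn1, Id1 and Vcam1 above it, and Ftl1 and Ednrb of endothelial members are highest in IDD+HID.

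Endothelial members of IDD+HID and IDD+HTF differed by 2-fold or more in 236 of 3422 genes. Beside Ednrb and Selp, the gene Cd63 (a tetraspanin of endothelial storage granules and late endosomes) was higher in IDD+HID, at 37.8, 176 and 51.5 CPM in IDD+HTF, IDD+HID and IDD, in 9, 30 and 2 cells, with a ratio of 4.66 (2.59 to 9.09) over IDD+HTF. Cap1, an actin regulator, stood at 14.5, 90.1 and 38.7 CPM, 6.20-fold (2.47 to 20.0) higher in IDD+HID over IDD+HTF. Rps2 and Rpl24 were 4.74-fold (3.71 to 6.13) and 5.72-fold (3.40 to 10.3) higher. Mgp, an inhibitor of vessel calcification, and Fmo2 had 2, 130 and 14 and 0, 82 and 21 UMIs, in 1, 6 and 1 and 0, 5 and 2 cells, so few cells set them. Ccl4, Tyrobp and Ctsh likewise had 1 cell with 50.9%, 52.8% and 33.8% of their UMIs in IDD+HID.

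Lower in IDD+HID than in IDD+HTF were Ddit4, a glucocorticoid- and stress-induced inhibitor of mTORC1, and the retinoic acid hydroxylase gene Cyp26b1. Ddit4 stood at 553, 147 and 129 CPM in IDD+HTF, IDD+HID and IDD, in 34, 31 and 7 cells, 3.76-fold (2.86 to 4.98) lower in IDD+HID than in IDD+HTF and 4.29-fold (2.28 to 9.09) higher in IDD+HTF over IDD. Cyp26b1 stood at 384, 58.8 and 219 CPM, 6.53-fold (4.37 to 10.1) lower in IDD+HID than in IDD+HTF, and sinusoidal cells held it at 948, 151 and 608 CPM with IDD+HID again the lowest. Cenpf, a mitotic gene, was 10.6-fold (5.92 to 20.7) lower in IDD+HID, and its sinusoidal levels were 298, 55.5 and 147 CPM. Depp1, a FOXO target, stood at 195, 27.4 and 374 CPM. The Notch target Hes1 stood at 2135, 926 and 1855 CPM, 2.30-fold (2.05 to 2.59) lower in IDD+HID than in IDD+HTF. Igkc, Rasd1, Rnd3, Dct, AW011738, Sass6, Klkb1 and Hspa1b were the other named lower genes, with Sass6 and Klkb1 at 2041, 996 and 1147 CPM and 5034, 1548 and 2934 CPM in free RNA.

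The counts of further lists, not all of them, stand beside 10.4% of all genes higher and 2.8% lower in IDD+HTF over IDD, and 19.0% higher and 4.98% lower in IDD+HID over IDD. Of 8 measured Notch and ephrin genes, 0 were past 2-fold in IDD+HTF over IDD and 2 (Efna1 and Hes1) were lower in IDD+HID over IDD. Of the Wnt and R-spondin list, Rspo3 was lower in both, at 186, 304 and 722 CPM, 3.88-fold (2.66 to 5.64) and 2.38-fold (1.72 to 3.25) lower, from 2 cells in IDD. The central vein type, which Rspo3 helped choose, held 14905, 50323 and 11749 UMIs in IDD+HTF, IDD+HID and IDD. All endothelial members had 343835, 510543 and 77612 UMIs, and the part of this makeup in the Rspo3 ratios was not tested. Of 7 measured NF-kB and cytokine genes, 1 (Cxcl9) was higher in IDD+HTF over IDD, and 2 (Cxcl9 and Nfkbia) were higher and 1 (Nfkb1) lower in IDD+HID over IDD. Nfkbia, the inhibitor that NF-kB itself induces, stood at 503, 783 and 283 CPM, 2.76-fold (1.80 to 4.46) higher in IDD+HID over IDD, and Cxcl1 had 14, 25 and 2 UMIs. Of 8 measured genes of the unfolded protein response list, 3 (Herpud1, Pdia4 and Pdia6) were higher in IDD+HID over IDD and 0 lower. In IDD+HTF over IDD 1 of 6 (Pdia6) was higher and 0 lower. Of 15 measured genes of the endocytic list, 2 were higher in IDD+HTF over IDD and 5 in IDD+HID over IDD, and 0 lower. In the same order, lipid transport had 3 of 7 and 1 of 7 higher, and 0 lower. Haemostasis had 1 of 8 and 2 of 10 higher and 1 lower in each, the rule gene Vwf. Vascular tone had 1 of 6 and 1 of 7 higher, and 1 lower in each. Leukocyte adhesion had 0 of 6 and 2 of 7 higher, and 1 lower in each. The angiocrine list had 2 of 11 and 1 of 10 higher, and 2 lower in each. Of the barrier and caveolae list, 0 of 8 measured genes were past 2-fold in IDD+HTF over IDD and 1 of 10 (Aqp1, higher) in IDD+HID over IDD.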

How the data were processed

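The authors deposited counts of UMIs per barcode and gene for every barcode of 3 libraries made with 10x 3' v3.1 chemistry, per the labels. The build GRCm38 and Seurat 4 are named in the submitters' processing notes, and the aligner is not given in the sources used here. Per the labels' protocols the perfused livers were digested with collagenase D for 7 min and with pronase. Of 55421 gene IDs, 54587 matched the annotation table with their version. Filters, classes and summed counts were computed with Python 3.11.15, numpy 2.4.6, pandas 2.3.3, scipy 1.17.1 and scanpy 1.11.5, TMM factors with edgeR 4.0.16 in R 4.3.3, and figures with matplotlib 3.10.9. Scrublet called 6, 7 and 27 cells as doublets in IDD+HTF, IDD+HID and IDD, 0 of them members. At 0.187% and 0.1975% of cells it had not worked in the first 2 libraries, so doublets were not removed. Counts were summed per class and library, since cells are not replicates, and ratios were read among genes with at least 50 UMIs in the pair. Poisson, Clopper-Pearson and conditional binomial 95% intervals cover counting error only. Intervals of the log2 differences between classes use a normal approximation and likewise cover counting error only. Shares were thinned to 1000 UMIs per cell, leaving out none of the cells, which all have at least 1000. The ratios and their intervals were run on simulated independent Poisson counts with known folds. The intervals assume such counts, so that run does not cover genes with most UMIs in 1 cell. Genes were named as the 12 with the largest change in each direction, by the interval bound nearest to 1, beside 28 fixed genes, the 20 highest and 15 lowest ratios over sinusoidal cells and members of the 42 gene lists, and a few named genes are not reported here. The members and the lists were chosen with earlier results of these data known.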

Additional observations from a re-analysis of the deposited data

Results flagged for a closer look

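Only the fixed genes and the named genes of each comparison were read here, not all measured genes. Among them, 5 had a ratio between groups at least 2-fold one way in endothelial members and the other way in sinusoidal cells. No share of all genes was counted beside these 5. The differences were not tested because each group has 1 mouse. The log2 ratio in endothelial members minus that in sinusoidal cells was -3.86 for Ccn2 in IDD+HTF over IDD, with 56.7% of its UMIs in endothelial members of IDD in 1 cell, without which the log2 ratio in endothelial members was -1.57. For Crip1 this difference was -3.10 in IDD+HTF over IDD and -3.19 in IDD+HID over IDD, and 1 cell held 83.3% of the Crip1 UMIs of endothelial members of IDD, without which those log2 ratios were 0.42 and 0.36. For Dnajb1 it was -3.28 in IDD+HID over IDD, with 70.7% of the UMIs of IDD in 1 cell, without which the log2 ratio in endothelial members was -0.64. For Selp it was 2.99 in IDD+HID over IDD, with 54.5% of the UMIs of IDD+HID in 1 cell, without which the log2 ratio in endothelial members was 0.37. For Igkc it was -6.37 in IDD+HID over IDD+HTF, with 97.5% of the UMIs of IDD+HTF in 1 cell.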

How the results depend on the processing

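No paired analysis was possible because each group has 1 mouse, and its replicate number 1 names a sample only. For all members, genes past 2-fold in IDD+HTF over IDD, IDD+HID over IDD and IDD+HID over IDD+HTF numbered 480, 824 and 272. With at least 100 UMIs in the pair they numbered 180, 368 and 127, and with at least 1 UMI in each library 4483, 4745 and 3594. For the first 2 comparisons they numbered 253 and 260 without members that carry sinusoidal markers, 248 and 364 with membership at 5 UMIs and 10 per 10000, 219 and 502 in endothelial members without central vein cells, and 148 and 516 without the deepest cell. In endothelial members alone the first numbered 203. For endothelial members the main counts were 203, 563 and 236, against 71, 230 and 104 at 100 UMIs, 4103, 4474 and 3429 at 1 UMI, and 22, 53 and 52 without sinusoidal markers, and the stricter membership gave 300 for IDD+HID over IDD. A minimum depth per member was set at 6000 UMIs, or 3000 in pairs with IDD. The causes were not tested, except that a higher UMI minimum tests fewer genes. Genes past 2-fold over sinusoidal cells numbered 262 for all members and 250 for endothelial members, against 718 and 701 without sinusoidal markers, 420 and 427 at 20 UMIs, and 344 to 929 and 342 to 735 on leaving out 1 library, where the highest counts are those without IDD.

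Of the genes past 2-fold in endothelial members, 78.8% were higher in IDD+HTF over IDD (92.6% with TMM, 62.1% with median-of-ratios scaling), 79.2% in IDD+HID over IDD (93.2% and 56.8%) and 53.8% in IDD+HID over IDD+HTF (60.2% and 41.4%). For all members these shares were 77.5% (93.6% and 67.5%), 77.2% (93.3% and 59.4%) and 39.7% (42.0% and 26.8%, and 50.7% from per-cell means). Over sinusoidal cells they were 26.7% for all members (15.1% with TMM) and 28.8% for endothelial members (13.5%). Members were 2.82%, 2.17% and 0.633% of cells with at least 6000 UMIs in IDD+HTF, IDD+HID and IDD, 0.842%, 0.846% and 0.600% with the stricter membership, and 5.46%, 4.11% and 3.73% of members and sinusoidal cells. The 0.633% rests on the members of IDD with 8620 and 15077 UMIs alone. Without sinusoidal markers, 26.7% of the remaining 30 members held central vein genes (13.5% of all, 11.2% of endothelial members), 16.7% arterial genes (56.3% of all, 66.4% of endothelial members) and 36.7% lymphatic genes (8.73% of all, 0% of endothelial members). These 30 include the 19 cells without endothelial genes, which held the lymphatic genes, part of the central vein genes and no arterial genes. The shares of the 30 therefore do not describe vessel types alone.

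Some log2 ratios turned round. From all members to endothelial members, and to those without central vein cells and without the deepest cell, Cd34 in IDD+HTF over IDD turned to -1.27, -1.58 and -1.51 and Fth1 to -0.43, -0.30 and -0.62. In IDD+HID over IDD, Cd34 turned to -0.14 without central vein cells and -0.049 without the deepest cell, Cxcl1 to -0.72 without central vein cells, and Selp to -0.73 without sinusoidal markers and -0.0758 with the stricter membership. Mt1 in IDD+HID over IDD+HTF turned to 0.43 in endothelial members. In endothelial members without sinusoidal markers, Vwf turned to 0.60 in IDD+HTF over IDD and 0.78 in IDD+HID over IDD, and Bmp2 to -1.46 in IDD+HTF over IDD. These values rest on few cells, 4 of them in IDD, and have no interval. Without the cell of IDD with the most UMIs of the gene, Tspan15 turned to 0.71 and 0.60 and Crip1 to 0.42 and 0.36 in IDD+HTF and IDD+HID over IDD. Among the other values of single genes, 1320 kept their size within the counting interval and 291 moved beyond it.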
